A study of Mus musculus with 4 samples.

Results

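A set of 9 genes of blood group antigens and red cell surface proteins was followed in erythroblasts, the nucleated red cell precursors of the bone marrow. They are Gypc, Rhag, Rhd, Kel, Ermap, Aqp1, Xk, Icam4 and Slc14a1. Each of the 9 had 1 probe set naming it alone and 0 shared with another gene, so all 9 were measured, among 19938 genes in all. Wild type mice and mice lacking Parp2 (Parp-2-/-) were compared, both on the C57BL/6 background. Parp2 encodes a poly(ADP-ribose) polymerase that responds to DNA damage. Cells positive for the erythroid antigen Ter119 and for the transferrin receptor CD71 were sorted from bone marrow, and 2 whole-transcript Affymetrix arrays were run per genotype. The deposited values are on the log2 scale, so that a difference of 1 is a doubling. The labels give neither the age of the mice nor the cells in which Parp2 is deleted, and they do not say whether replicates are separate animals, so that p-values speak of the spread among these 4 samples, part of which may be technical.

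Blood group antigens are carried by transporters, receptors and structural proteins that reach the red cell surface during the last divisions of erythroblasts. Several of them sit together. The Rh proteins and the Rh-associated glycoprotein form a complex that joins band 3 and CD47 and is held to the spectrin skeleton by ankyrin, while glycophorin C is held by protein 4.1 and the scaffold protein p55. The Kell protein, an endopeptidase, is linked by a disulphide bond to XK, a multipass membrane protein. Loss of single members in people gives red cells of altered shape, water or gas permeability, as in the Rh-null and McLeod types.

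The upstream sequences of these genes are shown first, because GATA1 is a main transcription factor of the lineage. RefSeq promoter entries of the build GRCm38.p6 were matched for 7 of the 9 genes; Gypc and Slc14a1 have no entry. The 250 bases before the start site were searched on both strands for the GATA motif, spelled as GATAA after an A or a T and likewise GATAG, and for the CACCC motif bound by KLF1, spelled CCACCC and, as a longer form, CACACCC. The 4 sequences below are those of Rhd, Ermap, Kel and Icam4. Knockout arrays lay within the wild type range for Rhd and Ermap, as they did for Kel and Rhag. Kel had the widest spread over the arrays, and Icam4 is the gene whose genotypes did not overlap. All 4 hold a GATA match, and the sequences of Rhag and of Aqp1 and Xk, which hold none, are not printed. Capitals mark the GATA matches, and each sequence reads from 5′ to 3′ on the strand of the gene.
Rhd (chr4:134864286-134864535, plus strand, GRCm38.p6): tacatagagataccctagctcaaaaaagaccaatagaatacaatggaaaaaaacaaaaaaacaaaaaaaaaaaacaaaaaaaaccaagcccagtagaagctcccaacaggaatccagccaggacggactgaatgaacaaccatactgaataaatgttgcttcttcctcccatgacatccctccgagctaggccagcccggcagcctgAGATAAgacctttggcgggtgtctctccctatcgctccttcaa
Ermap (chr4:119189996-119190245, minus strand, GRCm38.p6): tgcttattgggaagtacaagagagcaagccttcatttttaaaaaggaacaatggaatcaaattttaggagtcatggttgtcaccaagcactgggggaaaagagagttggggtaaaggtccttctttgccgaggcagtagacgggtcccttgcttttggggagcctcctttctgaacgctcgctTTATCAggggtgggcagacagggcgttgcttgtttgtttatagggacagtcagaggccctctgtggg
Kel (chr6:41704326-41704575, minus strand, GRCm38.p6): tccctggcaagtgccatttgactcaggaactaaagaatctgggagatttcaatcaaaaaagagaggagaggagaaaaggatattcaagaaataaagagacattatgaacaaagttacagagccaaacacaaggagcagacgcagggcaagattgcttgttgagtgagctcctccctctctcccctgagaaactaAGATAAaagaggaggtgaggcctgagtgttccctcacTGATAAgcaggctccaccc
Icam4 (chr9:21029182-21029431, plus strand, GRCm38.p6): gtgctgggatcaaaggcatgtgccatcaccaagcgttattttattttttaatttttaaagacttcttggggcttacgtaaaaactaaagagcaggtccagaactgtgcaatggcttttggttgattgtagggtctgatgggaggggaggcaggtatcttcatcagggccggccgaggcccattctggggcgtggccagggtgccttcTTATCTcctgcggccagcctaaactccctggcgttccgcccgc

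A GATA match lay within 100 bases of the start in 5 of the 7 genes, against 10.4% of the 32851 promoters in the table. Rhag had it 31 bases before the start site of its entry, Rhd and Icam4 43, and Ermap 67. Kel had 2, at 56 and 19 bases. Aqp1 and Xk, whose sequences are not printed, had none in the 250 bases, a window in which 26.5% of all promoters had one. A CACCC match was present in the 250 bases in 5 of the 7 (Aqp1, Ermap, Kel, Rhag and Xk), against 32.7% of all promoters. Within 100 bases it was present in 4 of the 7, against 16.6%. A match is a run of letters and not a measured binding site, and its bearing on the array values was not tested. Gata1 read 9.84 and 9.61 on wild type replicates 1 and 2 and 9.52 and 9.67 on knockout replicates 1 and 2. Klf1, whose product activates many of these surface genes, read 9.52 and 9.57 against 9.93 and 9.32. Neither regulator separated the genotypes or the replicate numbers. Over the list of 12 erythroid transcription factors 5 were higher and 7 lower in the knockout, with a median of -0.05. Of the 12, 2 had no overlap (16.7%, against 26% of all genes). The gene of lowest p among the 12 was Cbfa2t3, a corepressor that works with GATA1 and TAL1. It read 6.72 and 6.83 in wild type and 7.94 and 8.32 in knockout, a difference of +1.35 ± 0.36 (SE), or 2.55-fold (limma, unadjusted p = 0.0081, adjusted p = 0.9999).

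The genotype labels and the sort were checked next. Parp2 was lower on both knockout arrays (7.11 and 6.70) than on both wild type arrays (8.24 and 7.65). The difference of -1.04 ± 0.40 (SE) did not pass (limma, unadjusted p = 0.0368, adjusted p = 0.9999). Of all probe sets 9.42% were likewise lower in the knockout without overlap. Tfrc, the gene of CD71, read 10.35 and 11.43 in wild type and 10.65 and 11.39 in knockout, and all 10 measured erythroid identity markers lay between 9.32 and 13.01 on every array. Markers of other blood cells were also measured in the sorted cells, and 18 of 18 neutrophil markers were lower in the knockout. Of the 18, 16 had no overlap (88.9%, against 26% of all genes in either direction). None of the 18 markers passed the adjusted limma test without a block. A limma fit with the replicate number as a block, described below, did not use a gene's own spread. Of the 4 neutrophil markers of lowest unadjusted p, 3 passed it: Chil3 (adjusted p = 0.0004618), Ly6g (0.0036) and Itgam (0.0145). Ltf did not (limma with the block, adjusted p = 0.0680). The mean log2 level of the 18 markers was 10.83 and 10.04 in wild type replicates 1 and 2, against 9.41 and 8.79 in the knockout replicates. Of the other lists, 10 of 12 B cell, 9 of 11 T and NK cell and 9 of 10 mast cell, basophil and eosinophil markers were lower, and 6 of 7 platelet markers higher. The genes of lowest unadjusted p in these lists were, in this order, Ms4a1, Nkg7, Mcpt8 and Pf4. Limma with the block passed Ms4a1 (adjusted p = 0.0003148), Nkg7 (0.0089) and Mcpt8 (2.959e-05) but not Pf4 (0.2242). Log2 values of this kind have no zero, and none of these markers can be called absent. The array median over all annotated probe sets was 5.23 to 5.49, and the interquartile range was 1.98 on knockout replicate 2 against 2.62 to 2.94 on the other arrays. The deposited values of these probe sets thus did not share 1 distribution across the arrays. Numbers that open the sample titles (2 and 1 for wild type replicates 1 and 2, 4 and 3 for knockout replicates 1 and 2) have no stated meaning, and an order of processing and the genotype cannot be told apart.

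None of the 9 genes passed the test between the genotypes. The limma test over all 23410 annotated probe sets called 0 of the 9 at an adjusted p under 0.05, and 0 of all probe sets (0%). At an unadjusted p under 0.05 it called 0 of the 9 and 486 of all (2.08%). With the replicate number as a block it called 0 of the 9 and 274 of all (1.17%). That block fit gave the 9 genes and Parp2 a common SE of 0.41, so a gene's own spread did not enter it. Differences, knockout minus wild type, ran from -0.57 for Icam4 to +0.26 for Kel, with a median of -0.02 over the 9 genes and of +0.08 over all 19938. The median absolute difference was 0.09 for the 9 and 0.25 for all genes. These are descriptions of 2 arrays against 2, and the 95% intervals of single genes, given below, leave room for changes of up to several fold.

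**Figure D1:**
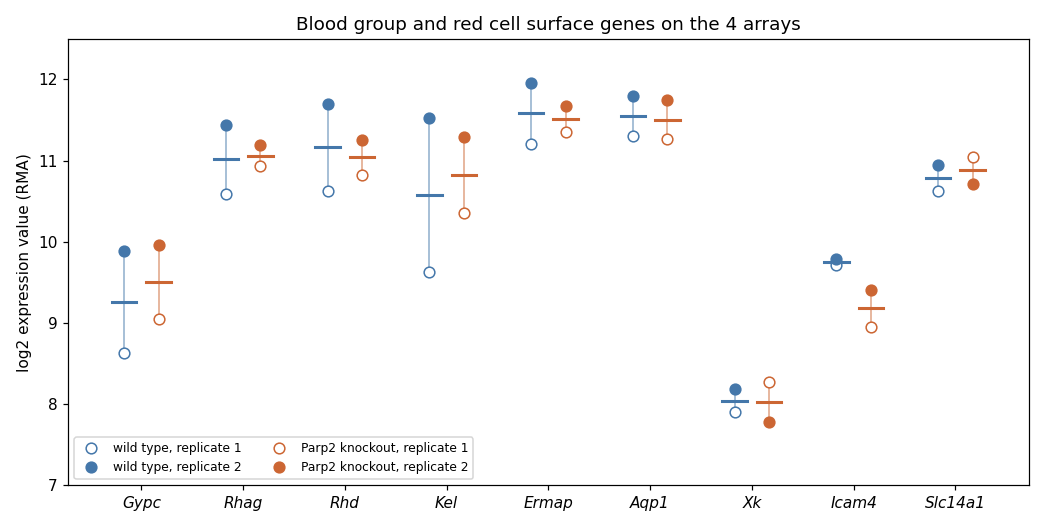
Log2 expression value of each of the 9 genes (vertical axis) on every array; open circles are replicate 1, filled circles replicate 2, blue wild type, orange Parp2 knockout, and short bars the mean of 2 arrays. Icam4 is the gene whose knockout arrays (8.96 and 9.41) both lie below both wild type arrays (9.72 and 9.79); heights of different genes come from different probes and are not to be compared.

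Icam4 was the single gene of the 9 with no overlap between the genotypes. It encodes the Landsteiner-Wiener (LW) glycoprotein, an adhesion molecule that binds integrins and takes part in contact between erythroblasts and the central macrophage of an erythroblastic island. Its probe set (10583529) read 9.72 and 9.79 in wild type and 8.96 and 9.41 in the knockout. The wild type arrays were close together and both knockout arrays lay below them, replicate 1 further than replicate 2. The difference was -0.57 ± 0.37 (SE, n = 2 per group), a 1.49-fold lower level, with a 95% interval from -1.46 to +0.31. It did not pass (limma, adjusted p = 0.9999, unadjusted p = 0.166). Groups failed to overlap in the lower direction for 9.42% of all probe sets and in either direction for 25%, and 1 gene of 9 is near the first share and below the second. With 1 array left out the difference ran from -0.80 to -0.35; its sign cannot change there, since the groups do not overlap. Quantile normalisation gives the 4 arrays the same distribution, which the deposited values did not have. After it, Icam4 read 9.57 and 9.77 in wild type and 8.75 and 9.75 in knockout, and the groups overlapped. Adgre1, the macrophage gene of F4/80, read 5.87 and 6.06 in wild type and 4.69 and 5.002 in the knockout. It had the lowest p of the 15 measured monocyte and macrophage markers, of which 12 were lower and 3 higher. Of these 15 markers 4 had no overlap (26.7%, against 26% of all genes). The mean level of that list was 6.99 and 7.64 in wild type against 6.28 and 7.30 in the knockout; its part in the Icam4 values was not tested. In such sorted bulk samples, fewer cells of a type and less RNA per cell cannot be told apart.

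The Rh complex genes were high and low on the same arrays. Rhag encodes the Rh-associated glycoprotein, an ammonia channel needed for the complex to reach the surface. It read 10.59 and 11.44 in wild type and 10.93 and 11.19 in knockout, a difference of +0.04 ± 0.42 (SE) with a 95% interval from -0.97 to +1.05. Rhd, the mouse gene of the Rh polypeptide that carries the D antigen in people, read 10.62 and 11.70 against 10.82 and 11.25, a difference of -0.12 ± 0.47 with an interval from -1.24 to +1.00. For both genes the knockout arrays lay between the wild type arrays, the wild type replicates being farther apart than the knockout replicates. Cd47, whose product sits in the same complex and signals to macrophages, had the same order, at 10.78 and 11.68 in wild type and 10.99 and 11.59 in knockout (difference +0.06 ± 0.46).

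Kel and Xk, whose products are bonded to each other, behaved differently across the arrays. Kel read 9.62 and 11.52 in wild type and 10.36 and 11.30 in knockout. Its wild type arrays differed by 1.90, the widest range among the 9 genes, and the genotype difference of +0.26 ± 0.67 (SE) had a 95% interval from -1.35 to +1.86. Xk read 7.90 and 8.18 in wild type and 8.27 and 7.78 in knockout. Here the wild type arrays lay between the knockout arrays, and the difference was -0.02 ± 0.38 with an interval from -0.93 to +0.89. On replicate 2 arrays Kel was higher than on replicate 1 arrays in both genotypes, while Xk was higher in wild type and lower in the knockout. Vps13a, whose product binds XK and is lost in chorea-acanthocytosis, read 6.66 and 7.14 in wild type and 6.46 and 6.57 in knockout (difference -0.39 ± 0.37, limma unadjusted p = 0.334).

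Gypc encodes glycophorin C, which carries the Gerbich antigens and anchors the membrane to the skeleton. It read 8.63 and 9.89 in wild type and 9.05 and 9.96 in knockout, a difference of +0.25 ± 0.55 (SE) with a 95% interval from -1.06 to +1.55. The 2 replicate 1 arrays were the low ones and the 2 replicate 2 arrays the high ones. Mpp1, the gene of its scaffold partner p55, had the same pattern, with 9.74 and 10.40 against 9.99 and 10.62 (difference +0.23 ± 0.43). Ermap, a butyrophilin-like adhesion protein that carries the Scianna antigens, read 11.20 and 11.96 against 11.35 and 11.68. Its difference was -0.07 ± 0.41, with an interval from -1.05 to +0.92, and the knockout arrays again lay within the wild type range.

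The transporters Aqp1 and Slc14a1 had, with Xk, the narrowest ranges over the 4 arrays. Aqp1, the water channel that carries the Colton antigens, read 11.31 and 11.79 in wild type and 11.27 and 11.74 in knockout, a difference of -0.04 ± 0.39 (SE) with a 95% interval from -0.98 to +0.89. Both genotypes thus had nearly the same pair of values. Aqp1 is also a gene of endothelial cells; the endothelial list had a mean level of 5.19 and 4.96 in wild type and 5.08 and 5.25 in knockout, with 8 of 12 members higher. Slc14a1, the urea transporter of the Kidd blood group, read 10.63 and 10.94 in wild type and 11.04 and 10.72 in knockout, so that replicate 1 was the higher array in the knockout and the lower one in wild type. Its difference was +0.09 ± 0.37, with an interval from -0.79 to +0.98. The adjusted p of each of these 8 genes was 0.9999 (limma).

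**Figure D2:**
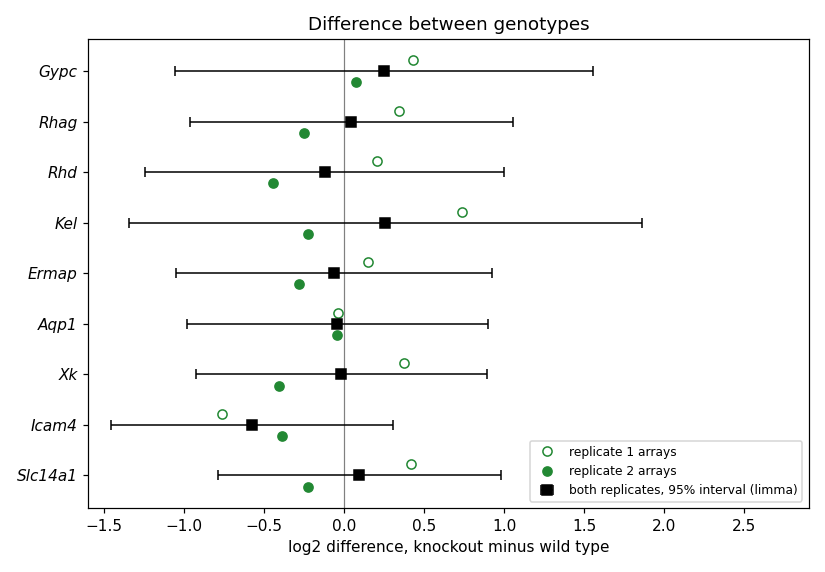
Knockout minus wild type difference of each gene on the log2 scale: black squares use all 4 arrays with limma's 95% interval, and green circles compare only the arrays that share a replicate number (open 1, filled 2). Every interval crosses 0, and for 6 of the 9 genes the open and filled circles lie on opposite sides of 0.

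Among the 9 genes the widest differences between arrays, those of Kel, Gypc and Rhd, ran along the replicate number that ends each title. In wild type all 9 genes were higher on replicate 2 than on replicate 1, with a median step of +0.76, and in the knockout 7 of 9 were, with a median step of +0.43. Over all genes the corresponding medians were -0.05 and +0.21. For 6 genes (Gypc, Rhag, Rhd, Kel, Ermap and Aqp1) both replicate 2 arrays lay above both replicate 1 arrays, which held for 25.4% of all genes. Averaged over the genotypes the step was +1.42 for Kel, +1.09 for Gypc, +0.76 for Rhd, +0.55 for Rhag, +0.54 for Ermap and +0.48 for Aqp1. It was +0.26 for Icam4, 0.00 for Slc14a1 and -0.10 for Xk. The absolute genotype difference was smaller than the step between the wild type replicates in 8 of the 9 genes, the exception being Icam4, and in 59.1% of all genes. The labels do not say what the number stands for, and no test of it was made.

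**Figure D3:**
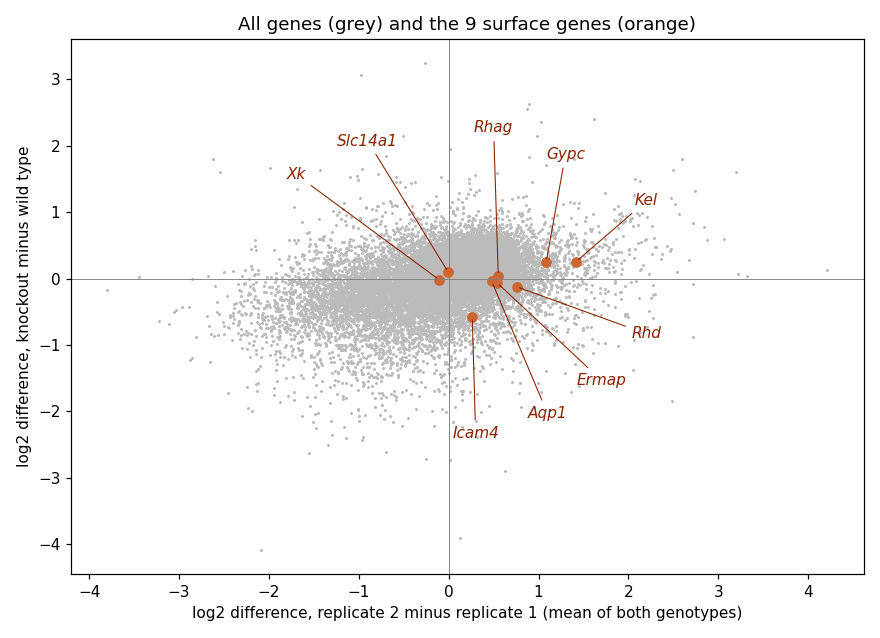
Each point is a gene: horizontal axis, log2 difference of replicate 2 minus replicate 1 averaged over both genotypes; vertical axis, log2 difference of knockout minus wild type. Kel (+1.42) and Gypc (+1.09) lie farthest right, and Icam4 (-0.57 on the vertical axis) lowest, among the 9 genes in orange.

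The genotypes were then compared within each replicate number. Between the replicate 1 arrays 7 of the 9 genes were higher in the knockout, from +0.15 for Ermap to +0.74 for Kel, while Aqp1 (-0.04) and Icam4 (-0.76) were lower. Between the replicate 2 arrays 8 of the 9 were lower, from -0.05 for Aqp1 to -0.45 for Rhd, and Gypc was at +0.07. The median was +0.34 for number 1 and -0.25 for number 2. Opposite signs were found for 6 of the 9 genes, a share near the 50.8% of all genes, while Gypc, Aqp1 and Icam4 kept 1 sign. In 4 genes (Rhag, Rhd, Kel and Ermap) both knockout arrays lay inside the wild type range, as they did for 12.3% of all genes.

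These within-number differences depended on how the arrays were scaled. After quantile normalisation the median difference between the replicate 1 arrays stayed at +0.32. Between the replicate 2 arrays it became +0.08, with 7 of 9 genes higher instead of 1. Kel was then at +0.75 and +0.09 for numbers 1 and 2, Rhag at +0.32 and +0.08, and Rhd at +0.18 and -0.13. Opposite signs were left for 2 genes, Rhd and Aqp1. Centring each array on its median gave +0.35 and -0.41, with 9 of 9 genes lower between the replicate 2 arrays. The step from replicate 1 to replicate 2 changed with the scaling too: it was upward in both genotypes for 9 of 9 genes after quantile normalisation, 7 of 9 in the deposited values and 5 of 9 after centring. Both scalings shifted knockout replicate 2, the array of narrowest interquartile range, the most: the median shift of the 9 genes there was +0.35 with quantile normalisation and -0.17 with centring, against -0.19 to +0.05 and -0.01 to +0.10 on the other arrays.

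**Figure D4:**
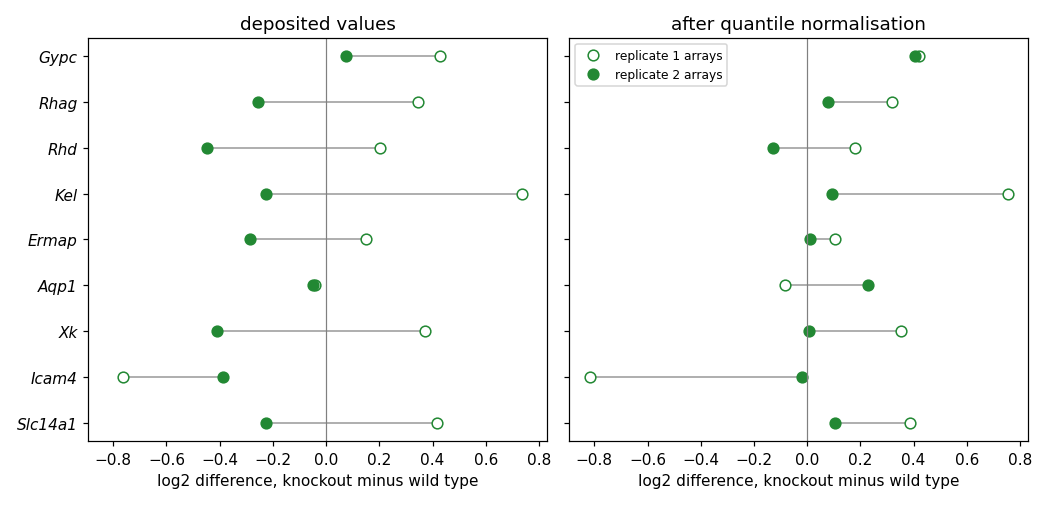
Knockout minus wild type log2 difference of each gene between the arrays of the same replicate number (open 1, filled 2). Deposited values are on the left and quantile-normalised values on the right. The filled circles lie left of 0 for 8 of 9 genes on the left and for 2 of 9 (Rhd and Icam4) on the right.

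Genes of proteins that join the 9 in the membrane were described next. Of 17 listed membrane and skeleton partners 14 were measured, and none passed the test (limma, adjusted; 0 at an unadjusted p under 0.05). Their median difference was +0.03, with 10 higher and 4 lower and 1, Vps13a, without overlap (7.14%, against 26% of all genes). All 14 were higher on replicate 2 in both genotypes, as 7 of the 9 surface genes and 33.3% of all genes were, and 13 of them had both replicate 2 arrays above both replicate 1 arrays. Slc4a1, which encodes band 3, the anion exchanger around which the Rh complex assembles, read 11.50 and 13.01 in wild type and 12.24 and 12.78 in knockout (difference +0.25 ± 0.56). Epb42, the gene of protein 4.2, which ties band 3 to the skeleton, read 9.06 and 11.43 against 10.17 and 11.31 (difference +0.50 ± 0.80). Piezo1, a mechanosensitive cation channel, read 7.81 and 8.87 against 7.36 and 8.52 (difference -0.40 ± 0.55). In 10 of the 14 partners both knockout arrays lay within the wild type range.

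Other blood group carriers and surface proteins were compared in the same way. Of 25 listed, which include Slc4a1 and Cd47, 24 were measured, with differences from -1.58 to +0.38 and a median of +0.07, and 0 passed the test, although 2 had an unadjusted p under 0.05. Of these 8 (33.3%) had no overlap, 3 higher and 5 lower, against 26% of all genes. Slc44a2, the choline transporter-like protein that also carries a neutrophil antigen, read 8.45 and 6.46 in wild type and 6.08 and 5.68 in knockout. The difference was -1.58 ± 0.65 (limma unadjusted p = 0.0475). It passed with the replicate number as a block (limma, adjusted p = 0.0137), in the fit that did not use a gene's own spread. Cd99l2, an adhesion protein of leukocytes related to CD99, read 7.58 and 6.58 against 6.06 and 5.67 (difference -1.22 ± 0.46, unadjusted p = 0.0328). Cd59b, a complement inhibitor, was at -0.89 ± 0.41, and Emp3, the membrane protein of the MAM blood group, at -0.76 ± 0.51. The neutrophil markers, all 18 lower in the knockout with a median of -1.46, were lower on the same arrays, and their part was not tested. Knockout arrays lay within the wild type range for 5 of the 24 (20.8%, against 12.3% of all genes), among them the Junior transporter Abcg2 and the Duffy receptor Ackr1, and wild type arrays within the knockout range for 4 (Cd55, Cd59a, Abcc4 and Slc29a1).

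Genes of maturation stage were also read by array. All 14 late erythroblast genes were higher on replicate 2 in both genotypes, with a median step of +1.72 averaged over them, against +0.54 for the 9 surface genes and +0.09 for all genes. Xpo7, a nuclear exporter needed for enucleation, read 6.93 and 12.05 in wild type and 10.45 and 11.72 in knockout. Bcl2l1, the survival gene of late erythroblasts, read 6.17 and 10.25 against 8.82 and 10.23. Wild type replicate 1 was thus the lowest array for both. Its early progenitor list stood highest, with a mean level of 7.25 against 6.80 on wild type replicate 2, and 6.69 and 6.14 on the knockout arrays; Kit, the stem cell factor receptor, read 8.09 there and 5.98, 5.73 and 5.82 on the other 3. On replicate 2, 5 of the 14 progenitor genes were higher in wild type and 7 of 14 in the knockout, so this list had no common step with the number. Between the genotypes 12 of the 14 were lower in the knockout, as 8275 of all 19938 genes were. Without overlap were 6 of the 14 (42.9%, against 26% of all genes), 5 lower and 1 higher. The median difference of the progenitor genes was -0.40 between the replicate 1 arrays and -0.54 between the replicate 2 arrays. Of the 14 late erythroblast genes 13 were higher, as 11663 of all 19938 genes were, and 0 had no overlap (0%, against 26%). Between the replicate 1 arrays all 14 were higher, with a median of +0.84. Between the replicate 2 arrays 6 were higher, with a median of -0.01. In neither list did a gene pass the adjusted limma test (0 of 14 each). With the replicate number as a block, in the fit that did not use a gene's own spread, Xpo7 passed (limma, adjusted p = 0.0113). Its difference was +3.53 for number 1 and -0.33 for number 2. The listed progenitor genes Spi1 (-1.92, adjusted p = 0.0007034) and Cdk6 (-1.45, adjusted p = 0.0324) also passed that limma fit. Cdk6 was at -0.35 for number 1 and -2.55 for number 2, and its groups overlapped. Spi1 read 9.51 and 8.31 in wild type and 7.93 and 6.05 in knockout. The neutrophil list means had the same order of arrays, and their part was not tested. Whether the stage of the sorted cells set the surface gene values was not tested.

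**Figure D5:**
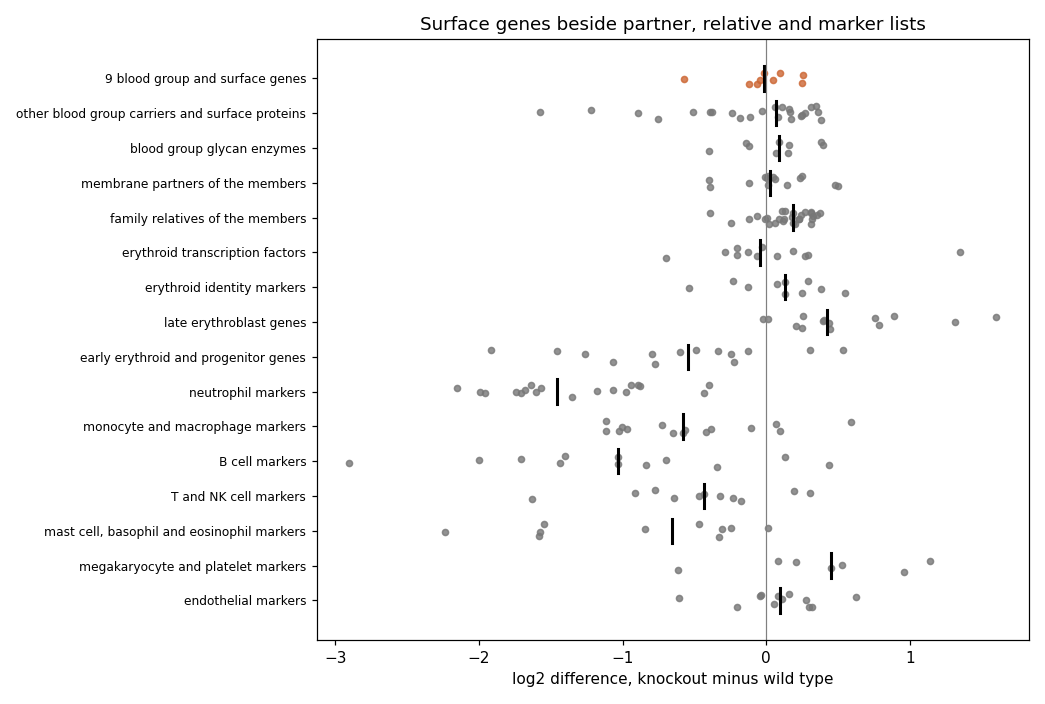
Knockout minus wild type log2 difference of every measured gene (points, shifted vertically to be seen) in the 9 surface genes and 15 other lists; black bars are medians. The 9 genes have a median of -0.02, the partners +0.03, the late erythroblast genes +0.42 and the neutrophil markers -1.46.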

How the data were processed

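Normalised log2 values, as the authors deposited them, formed 1 table of 35511 probe sets by 4 arrays and were used as they stand. Per the submitters' processing notes the tools were RMA, R 3.0.2 and limma, in roles that are not stated. RMA compresses differences of dim and very bright probe sets. Per the labels' protocols 100 ng of total RNA was labelled per sample. The platform annotation gave 21789 probe sets 1 symbol, 1621 several and 12101 none; a RefSeq gene table of GRCm38.p6 changed 0 of them. Of several probe sets naming a gene alone, the one of highest mean over the 4 arrays was used. Knockout and wild type were compared by limma 3.58.1 (R 4.3.3; lmFit, eBayes; 2 residual and 4.77 prior degrees of freedom) over 23410 annotated probe sets, with Benjamini-Hochberg adjustment and calls at 0.05; the fit was tested on simulated data. With 2 arrays per genotype an exact two-sided permutation test has a smallest p of 0.333, so none was used, and the number of arrays limits the precision. The members, lists and motifs were chosen with earlier results of these data known. Named are the 9 genes, Parp2, the partners, markers or regulators Slc4a1, Cd47, Tfrc, Klf1 and Gata1 (1 further item of this rule is not reported here) and up to 4 genes of lowest p in each other list; Abcg2, Ackr1, Cdk6, Cd55, Cd59a, Abcc4, Slc29a1, Icam1 and Icam5 were added after their values were seen. The alternatives tried were a block for the replicate number, leaving out each array, centring, quantile normalisation, a filter to brighter probe sets, array weights, trended and robust moderation, every row of the table, averaging a gene's probe sets, and other thresholds. The within-replicate values under each scaling were added after the data were seen. Only 2 pairs share a number, too few to show that the numbers pair the arrays; across probe sets, which are not independent, the steps from replicate 1 to 2 in wild type and in knockout had a correlation of 0.47.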

Additional observations from a re-analysis of the deposited data

How the results depend on the processing

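Of the 9 genes 0 passed in any setting, and the lowest adjusted p over all settings was 0.632 (limma). The fit with the replicate number as a replicate block left 1 residual degree of freedom, used a common SE and called 0 of the 9. The count over all probe sets was 0 in the reported fit and 274 with this block. It was 8 with trended and robust moderation, 486 at an unadjusted p under 0.05, and 0 to 62 with 1 array left out. The count of the 9 genes without overlap, 1 as reported, was 0 after quantile normalisation, and 3 to 7 with 1 array left out, where 1 array against 2 overlaps less by construction. Rhag was at -0.028 when arrays were centred on their medians. After quantile normalisation Rhd was at +0.024, Ermap at +0.057, Aqp1 at +0.073 and Xk at +0.18, and the median of all genes was at +0.05. With 1 array left out the difference ran from -0.38 to +0.88 for Gypc, -0.38 to +0.47 for Rhag, -0.66 to +0.42 for Rhd, -0.69 to +1.20 for Kel, -0.45 to +0.31 for Ermap, -0.29 to +0.20 for Aqp1, -0.27 to +0.23 for Xk and -0.069 to +0.26 for Slc14a1. For Gypc, Rhag, Kel, Rhd, Ermap and Aqp1 the lowest or highest of these came without wild type replicate 1 or 2; such fits compare unequal sets of replicate numbers. Parp2 was lower in the knockout in every setting run, from -1.33 to -0.74. With 1 array left out its sign could not change, since its groups do not overlap. Array weights, the filter to brighter probe sets, all rows of the table, averaging a gene's probe sets and the block left the 9 differences as reported. That outcome was fixed by the design, with 2 arrays per group and 1 probe set per gene. These settings could change only the SE and the p-values. The cause of the changes was not tested beyond these settings.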

Other observations

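Relatives of the 9 genes that serve other tissues were read as a further description. All 28 listed relatives were measured, between 3.16 and 8.77 on the log2 scale, with 23 higher and 5 lower in the knockout, 8 without overlap (28.6%, against 26% of all genes) and a median of +0.18; 0 passed the limma test and 0 had an unadjusted p under 0.05. Rhcg, the kidney relative of Rhag, read 4.76 and 5.02 in wild type and 5.03 and 5.49 in knockout. Icam2, an adhesion molecule of endothelium and leukocytes, read 6.69 and 6.08 against 5.93 and 6.05, with both knockout arrays below both wild type arrays and a difference of -0.03 between the replicate 2 arrays. Icam5 differed by +0.22 and Icam1 by +0.02, so the relatives of Icam4 had no common direction. Between the replicate 2 arrays 24 of the 28 relatives were higher in the knockout and between the replicate 1 arrays 14 were; over all 19938 genes these counts were 11632 and 9846. The lower quartile of knockout replicate 2 was 4.70, against 4.33 to 4.40 on the other arrays.

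Enzymes that build the carbohydrate blood groups were measured for 9 of 10 listed genes, with values between 4.09 and 5.86 and a median difference of +0.09. Gcnt2, which makes the branched I antigen, read 5.70 and 5.02 in wild type and 5.002 and 4.92 in knockout. It was the 1 gene of the list without overlap (11.1%, against 26% of all genes). Abo read 4.09 and 4.55 against 4.43 and 4.96.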
